A study of Mus musculus with 9 samples.

Results

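The circadian clock genes examined here were 10 named genes of the core clock and its output: Nr1d1, Nr1d2, Arntl, Clock, Npas2, Per1, Per2, Per3, Dbp and Tef. They were picked by name, with earlier results of these data known, in which Nr1d1 had been called. All deposited sequence records carrying a gene's symbol were summed. Of the 10, 9 had a row among the 15593 gene symbols of the table, and Npas2 was not analysed here. The RNA came from mouse gastrocnemius, the large calf muscle, in 3 groups of 3 libraries. The first group was wildtype and was given vehicle. The second was mdx, which carries a mutation of the dystrophin gene Dmd and models Duchenne muscular dystrophy, and was given vehicle too. The third was mdx given GTx-026, injected subcutaneously at 10 mg/kg, which the study's title places among agonists of the androgen receptor. All 9 libraries bear the strain label C57BL/6. The sources used here do not give the age of the mice, the hour at which muscle was taken or the length of treatment.

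In the mammalian clock, the proteins CLOCK or NPAS2 pair with BMAL1, the product of Arntl, and switch on genes that carry E-boxes. Among those genes are the Per and Cry repressors, which shut the activators down, and Nr1d1 and Nr1d2, whose products REV-ERB alpha and beta repress Arntl. Dbp and Tef encode activators that bind D-boxes and carry the rhythm to output genes. In mouse tissues Nr1d1 peaks first in the day, Dbp and Per3 follow, Per1 and Per2 come later, and Arntl, Npas2 and Clock peak nearly opposite to Nr1d1. Skeletal muscle has a clock of its own, which is known for its hold on fuel use. No library carries a time label, so a rhythm cannot be followed in these data.

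The tissue label was checked against marker genes, and all 7 markers of skeletal muscle fibres were measured. Their summed level was 163300 to 202300 CPM in wildtype vehicle, 116000 to 158000 in mdx vehicle, below wildtype without overlap, and 119100 to 207600 in mdx GTx-026. CPM is a gene's reads per M (mega) of reads listed for that library, once libraries were rescaled. A library held an estimated 25.1 M to 38.0 M reads. The mdx vehicle library 1 stood apart, with slow-fibre markers summing to 276 CPM where the other 8 libraries lay between 901 and 13520 CPM. Of 4 adipocyte markers, 3 were measured. They summed to 877 CPM in wildtype vehicle library 1, which had the most Nr1d1, and to 83.7 and 139 CPM in wildtype libraries 2 and 3. Their sums were 104 to 477 CPM in mdx vehicle and 134 to 537 CPM in mdx GTx-026. Of 9 macrophage markers, 8 were measured, and their sum was 42.7 to 121 CPM in wildtype vehicle, 127 to 583 in mdx vehicle and 358 to 517 in mdx GTx-026. All 5 fibroblast and fibro-adipogenic markers were measured, with sums of 392 to 581, 552 to 1345 and 850 to 1415 CPM in the same order. In such whole-muscle RNA, fewer cells of a type and less RNA per cell cannot be told apart, and the part of these shifts in the results below was not tested. No label ties a library to a particular mouse, and every p-value measures only how libraries spread.

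Promoter sequences are shown for 3 genes. Nr1d1 is the gene that passed the test. The windows of Per1 and Per3 hold letters of the sites of the clock's activators, repressors and output factors. Each window runs from 250 bases before to 50 bases after the start site on the gene's own strand (RefSeq, GRCm38.p6). Searched on both strands were the E-box CACGTG, the D-boxes TTATGTAA and TTACGTAA, and the receptor site AGGTCA that ROR and REV-ERB proteins share. Capitals mark a match, and a receptor site on the opposite strand reads TGACCT.
Nr1d1, chr11:98775328-98775627, minus strand: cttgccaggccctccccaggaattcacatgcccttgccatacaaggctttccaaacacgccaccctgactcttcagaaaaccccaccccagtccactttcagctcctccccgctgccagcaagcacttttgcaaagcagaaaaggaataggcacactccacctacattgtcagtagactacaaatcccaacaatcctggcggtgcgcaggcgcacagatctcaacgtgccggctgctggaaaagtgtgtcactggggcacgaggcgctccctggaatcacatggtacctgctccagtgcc
Per1, chr11:69098699-69098998, plus strand: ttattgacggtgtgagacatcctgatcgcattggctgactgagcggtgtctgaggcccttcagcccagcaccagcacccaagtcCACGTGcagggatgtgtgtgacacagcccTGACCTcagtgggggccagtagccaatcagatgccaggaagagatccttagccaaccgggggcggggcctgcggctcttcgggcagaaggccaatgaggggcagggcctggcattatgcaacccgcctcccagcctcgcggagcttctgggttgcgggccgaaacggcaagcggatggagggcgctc
Per3, chr4:151044616-151044915, minus strand: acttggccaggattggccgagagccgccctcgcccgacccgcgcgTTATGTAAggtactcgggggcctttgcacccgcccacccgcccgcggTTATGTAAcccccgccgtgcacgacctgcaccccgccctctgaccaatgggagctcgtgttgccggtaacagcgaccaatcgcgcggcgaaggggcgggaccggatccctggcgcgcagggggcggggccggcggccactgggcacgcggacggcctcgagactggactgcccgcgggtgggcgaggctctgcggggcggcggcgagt
The Per1 window shown, the first of 2 in the table, held an E-box 166 bases before the start site and a receptor site 137 bases before it; the second (chr11:69099902-69100201) held none of the searched sites. The Per3 window held 2 D-boxes, 205 and 158 bases before the start site. The Nr1d1 window held none of these letters, which says only that they are absent from this stretch. Among the 9 genes with an entry in the promoter table, an E-box was found for 2 (Per1 and Tef), a D-box for 1 (Per3) and a receptor site for 4 (Per1, Nr1d2, Clock and Arntl). Counted in the same way, with a match in any window of a gene, the shares over all 27025 genes of the table were 8.09% for the E-box, 1.23% for the D-boxes and 18.1% for the receptor site. A match is a description of letters and not a shown binding site.

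Nr1d1 (chromosome 11, 98767932 to 98775333, GENCODE M21 on GRCm38.p6) encodes REV-ERB alpha, the repressor of Arntl. Its level was 181, 143 and 139 CPM in the wildtype vehicle libraries 1 to 3. It was 64.1, 56.7 and 67.3 CPM in the mdx vehicle libraries and 65.7, 56.4 and 82.8 CPM in the mdx GTx-026 libraries. All 6 mdx libraries lay below all 3 wildtype libraries, and the mdx groups overlapped each other. The group means, in the same order, were 154.5 ± 23.3, 62.7 ± 5.43 and 68.3 ± 13.4 CPM (SD, n = 3). The log2 fold change of CPM + 1 was −1.28 in mdx vehicle against wildtype vehicle (SE 0.17, 95% interval −1.66 to −0.90), and the mdx vehicle mean was 0.406 of the wildtype mean (limma, Benjamini-Hochberg adjusted p = 0.0227 over all 15372 genes). In mdx GTx-026 against wildtype vehicle, which shares the wildtype libraries, it was −1.17 (limma, adjusted p = 0.0138). Between the mdx groups the difference was 0.11 (95% interval −0.28 to 0.49, adjusted p = 0.9998). In the mdx vehicle libraries, in which Nr1d1 was low, the summed muscle fibre markers were lower, and the macrophage and fibroblast markers on average higher. Of the 7 fibre markers 6 were lower and 1 higher (Pvalb, 0.09), with 0 at an unadjusted p under 0.05 by limma. In mdx GTx-026, where Nr1d1 was low too, the fibre sum of 119100 to 207600 CPM overlapped wildtype. The macrophage and fibroblast sums there lay above wildtype. The part of these markers in the fall of Nr1d1 was not tested.

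The fall of Nr1d1 kept its direction under all 21 alternative settings, with log2 fold changes of −1.35 to −1.10 and adjusted p-values of 0.00785 to 0.103, and passed the threshold of 0.05 in 15. In mdx vehicle the threshold was missed when wildtype vehicle library 1, 2 or 3 was left out (limma, adjusted p = 0.0546, 0.0982 and 0.102) and without mdx vehicle library 3 (0.0833). So it was with the authors' own scaling (−1.10, adjusted p = 0.103) and when only the 6 libraries compared were fitted (0.062). Without mdx vehicle library 1, which stood apart, the value was −1.30 (limma, adjusted p = 0.0333). For mdx GTx-026 the threshold was missed when wildtype vehicle library 2 or 3 was left out (limma, adjusted p = 0.052 and 0.0531), without mdx GTx-026 library 1 or 2 (0.0626 and 0.0545) and with the authors' scaling (0.0568). In the authors' deposited table, whose p-values are not adjusted, the wildtype vehicle mean was 2.18 times that of mdx vehicle (p = 0.0425) and 2.11 times that of mdx GTx-026 (p = 0.0428).

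**Figure D1:**
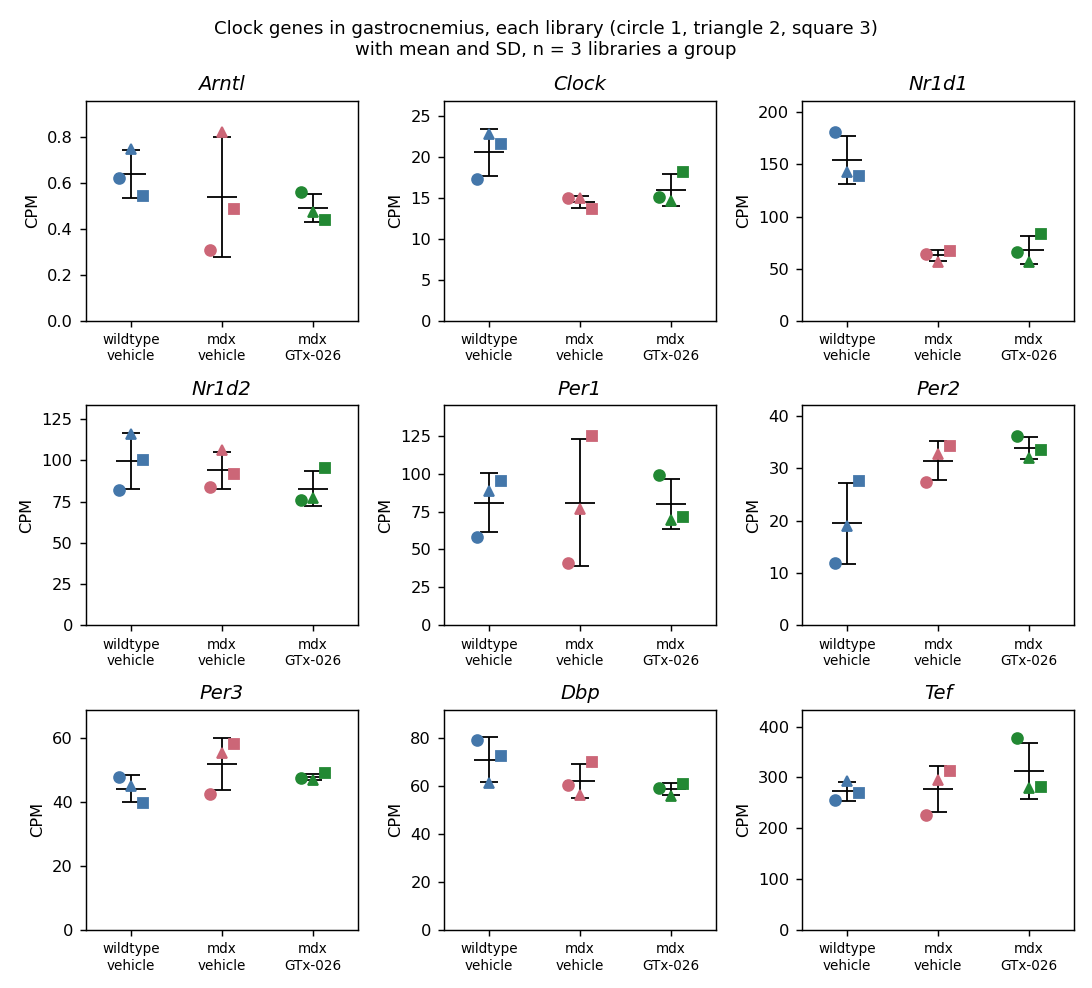
Level of each measured clock gene in CPM (vertical axes, each starting at 0) in the 3 libraries of wildtype vehicle, mdx vehicle and mdx GTx-026 (circle library 1, triangle library 2, square library 3), with the mean and SD of each group. Nr1d1 is at 139 to 181 CPM in wildtype vehicle and at 56.4 to 82.8 CPM in the 6 mdx libraries, while the groups of Nr1d2, Per1, Per3, Tef and Arntl overlap.

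Nr1d1 lies tail to tail with Thra, the thyroid hormone receptor alpha gene on the opposite strand, and 263 of its 3077 exonic bases (8.55%) are shared with it. The sources used here do not say whether reads were counted by strand, so reads from the shared bases cannot be told apart. Thra was at 57.9, 66.9 and 64.3 CPM in wildtype vehicle, then 35.5, 46.2 and 59.5 in mdx vehicle, and 64.8, 43.2 and 51.6 in mdx given GTx-026. It did not pass the test (mdx vehicle against wildtype vehicle −0.44, 95% interval −0.90 to 0.02, adjusted p = 0.41). The log2 difference Nr1d1 minus Thra within a library was 1.10 to 1.65 in wildtype vehicle, 0.18 to 0.85 in mdx vehicle and 0.02 to 0.68 in mdx GTx-026. The wildtype libraries thus lay above both mdx groups in this difference too, which no scaling between libraries can alter and which was chosen after the values were seen.

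Of the 9 measured clock genes, Nr1d1 alone passed the test in mdx vehicle, where 0.338% of all genes did so, and 0.15% did so in the direction of a fall. It was also the only one past it in mdx GTx-026 against wildtype vehicle, where 1.48% of all genes passed, and 0.429% passed as lower. Since Nr1d1 had been called in these same data before the genes were chosen, its passing is not a fresh test. In mdx GTx-026 against mdx vehicle 0 of 9 passed by limma and 0 of 9 had an unadjusted p under 0.05, while 0.013% and 3.16% of all genes did so. At an unadjusted p under 0.05, 3 of 9 clock genes (Nr1d1, Clock and Per2) stood in each of the comparisons with wildtype, against 12.7% and 12.5% of all genes. These counts include Nr1d1, so they are not a fresh test either. The median log2 fold change of the 9 was −0.10 in mdx vehicle, −0.14 in mdx GTx-026 against wildtype vehicle and 0.11 between the mdx groups. Over all genes the medians were 0.01, 0.00159 and 0.00469.

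Nr1d2 (chromosome 14, 18204054 to 18239127) encodes REV-ERB beta, the paralog that shares Nr1d1's targets, and its promoter window holds a receptor site 77 bases before the start site. It was at 82.1, 116 and 101 CPM in wildtype vehicle, then 84.1, 106 and 91.8 in mdx vehicle, and 76.0, 77.3 and 95.1 in mdx given GTx-026. The groups overlapped, and the log2 fold change of mdx vehicle was −0.07 (95% interval −0.44 to 0.30, limma adjusted p = 0.868). That interval lies wholly above the interval of Nr1d1. Within a library, the log2 difference Nr1d1 minus Nr1d2 was 1.14, 0.30 and 0.47 in wildtype vehicle. It was −0.39, −0.91 and −0.45 in mdx vehicle and −0.21, −0.46 and −0.20 in mdx GTx-026. The sign of this difference, which depends on the lengths of both genes, is not a comparison of their levels, but its shift between groups is not affected by length. Every mdx library lay below every wildtype library in it, and the pair was chosen after its values were seen.

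**Figure D2:**
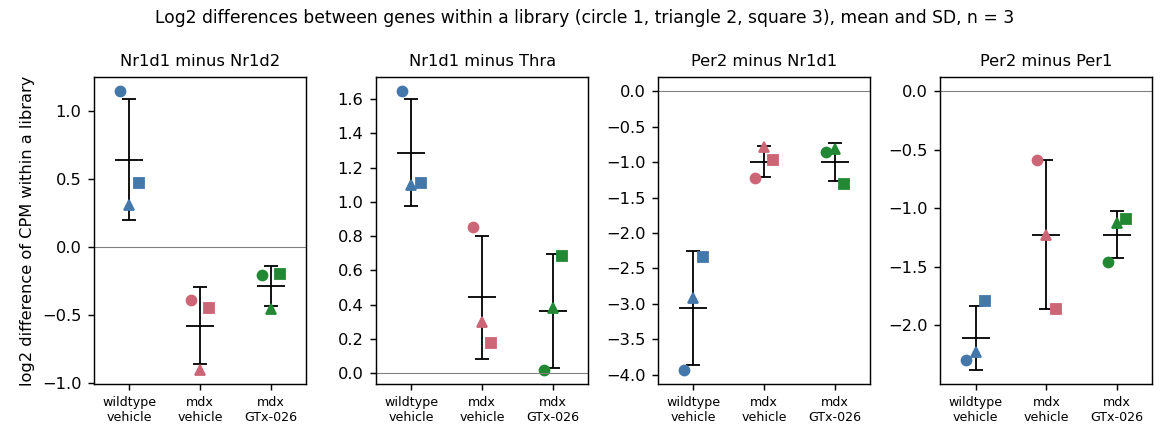
Log2 differences of CPM between pairs of genes within each library (vertical axes), in wildtype vehicle, mdx vehicle and mdx GTx-026 (circle library 1, triangle library 2, square library 3), with the mean and SD of 3 libraries. Nr1d1 minus Nr1d2 is 0.30 to 1.14 in wildtype vehicle and −0.91 to −0.20 in the mdx libraries, and Per2 minus Nr1d1 is −3.93 to −2.34 against −1.31 to −0.79.

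Clock (chromosome 5, 76209868 to 76304792) encodes the activator that binds E-boxes together with BMAL1. Its 7 records summed to 17.3, 22.7 and 21.5 CPM in wildtype vehicle, then 14.9, 15.0 and 13.7 in mdx vehicle, and 15.0, 14.5 and 18.2 in mdx given GTx-026. All mdx vehicle libraries lay below all wildtype libraries, whereas mdx GTx-026 overlapped wildtype. The log2 fold change of mdx vehicle was −0.46 (95% interval −0.80 to −0.13) and did not pass over all genes (limma, adjusted p = 0.275). For mdx GTx-026 against wildtype vehicle it was −0.34 (adjusted p = 0.389). Each of the 7 Clock records was lower on average in both mdx groups than in wildtype, with log2 fold changes of −0.56 to −0.24 in mdx vehicle and none past the threshold. Since records of a gene can share reads, they are not independent of each other.

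Arntl (chromosome 7, 113207465 to 113314126), which encodes the partner of CLOCK and is the best known target of REV-ERB alpha, was near the bottom of the table. Its single record held an estimated 10 to 28 reads in a library, and the smallest value above 0 in the deposited table was 10. It was at 0.62, 0.75 and 0.55 CPM in wildtype vehicle, then 0.31, 0.83 and 0.49 in mdx vehicle, and 0.56, 0.48 and 0.44 in mdx given GTx-026. The groups overlapped, and the log2 fold change of CPM + 1 in mdx vehicle was −0.10 (95% interval −0.39 to 0.19, limma adjusted p = 0.754). At this level the added 1 CPM damps any change. The interval allows 0.761 to 1.14 times the wildtype level of CPM + 1. These are not bounds on Arntl itself, whose level is below the added 1 CPM. The bounds on its own level are wider and were not computed. The log2 difference Arntl minus Nr1d1 within a library was −7.92 ± 0.313 in wildtype vehicle, −6.97 ± 0.813 in mdx vehicle and −7.11 ± 0.392 in mdx given GTx-026 (SD over 3 libraries). The difference Arntl minus Per3 was −6.11 ± 0.184, −6.69 ± 0.558 and −6.61 ± 0.2. On average the first was higher and the second lower in mdx than in wildtype, and the ranges of wildtype and mdx vehicle overlapped in both. The mdx GTx-026 libraries did not overlap wildtype in either, at −7.56 to −6.87 against −8.18 to −7.57 for the first, where the ranges nearly touch, and −6.80 to −6.40 against −6.26 to −5.91 for the second. Both differences rest on the few reads of Arntl.

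Among the period genes, which encode the repressors that close the loop, the largest difference in mdx vehicle was that of Per2 (chromosome 1, 91415982 to 91459324). Its 3 records summed to 11.9, 19 and 27.5 CPM in wildtype vehicle, then 27.3, 32.7 and 34.4 in mdx vehicle, and 36.2, 32.0 and 33.5 in mdx given GTx-026. The wildtype libraries were spread widely, and library 3 just reached the lowest mdx vehicle library, while all mdx GTx-026 libraries lay above wildtype. The log2 fold change was 0.73 in mdx vehicle (SE 0.25, 95% interval 0.17 to 1.29, unadjusted p = 0.0155) and missed the threshold over all genes (limma, adjusted p = 0.288). Against wildtype vehicle the value in mdx GTx-026 was 0.84 (95% interval 0.28 to 1.40, adjusted p = 0.166). Per2 passed in neither comparison under any of the 21 alternatives, with values of 0.44 to 1.01 in mdx vehicle. In the authors' deposited table the wildtype vehicle mean was 0.531 to 0.557 of the mdx vehicle mean over the 3 Per2 records, with unadjusted p-values of 0.0217 to 0.0728. Per2 minus Nr1d1 within a library was −3.93, −2.91 and −2.34 in wildtype vehicle, −1.23, −0.79 and −0.97 in mdx vehicle and −0.86, −0.82 and −1.31 in mdx GTx-026. Every mdx library thus lay above every wildtype library in this difference, which was also chosen after the values were seen.

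Per1 (chromosome 11, 69095217 to 69109960) is the period gene that also answers directly to glucocorticoid and to cyclic AMP. Its 4 records summed to 58.5, 88.9 and 95.2 CPM in wildtype vehicle, then 41.1, 76.6 and 125 in mdx vehicle, and 99.3, 69.8 and 71.4 in mdx given GTx-026. The mdx vehicle libraries took both the lowest and the highest place, so Per1 varied more within that group than between groups. The log2 fold change of mdx vehicle was −0.11 with a 95% interval of −0.91 to 0.70 (limma, adjusted p = 0.915), and its sign turned with the authors' scaling. Between the mdx groups it was 0.11, with an interval of −0.70 to 0.91. Changes of Per1 within these bounds remain possible.

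Per3 (chromosome 4, 151003652 to 151044665) is the third period gene, which is dispensable for the core loop in the mouse. Summed over its 8 records it was at 47.7, 45.1 and 39.5 CPM in wildtype vehicle, then 42.6, 55.1 and 57.9 in mdx vehicle, and 47.4, 46.8 and 48.9 in mdx given GTx-026. The groups overlapped, and the log2 fold change of mdx vehicle was 0.22 (95% interval −0.10 to 0.54, limma adjusted p = 0.539). Camta1, a same-strand gene that spans Per3, shares 0 exonic bases with it.

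Within Per3, the record with the highest mean level over all 9 libraries did not follow the other 7. It led through the mdx libraries alone, since in wildtype vehicle its mean of 5.19 CPM lay below those of records 2 to 6 (6.40 to 7.58 CPM). It was at 5.47, 5.36 and 4.73 CPM in wildtype vehicle, then 9.84, 10.3 and 11.1 in mdx vehicle, and 9.60, 9.72 and 9.94 in mdx given GTx-026, with no overlap between wildtype and either mdx group. When each record was tested by itself over all 46007 records, it rose by 0.88 on the log2 scale in mdx vehicle (SE 0.13, limma adjusted p = 0.0232), where 0.28% of all records passed and 0.15% passed as higher. In mdx GTx-026 against wildtype vehicle it rose by 0.80 (limma, adjusted p = 0.0168), where 1.19% passed and 0.778% passed as higher. The other 7 records had log2 fold changes of −0.10 to 0.38 in mdx vehicle and none passed, the lowest adjusted p being 0.64. As a share of all Per3 reads the record took 11.5% to 12.0% in wildtype vehicle, 18.6% to 23.1% in mdx vehicle and 20.3% to 20.8% in mdx GTx-026. A share within a gene does not depend on the scaling between libraries. Which transcript of Per3 this record stands for was not given in the sources used here, and it was singled out after its values were seen.

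The rise of this Per3 record kept its direction in all 17 alternatives run for records, at 0.60 to 1.04 in mdx vehicle, and passed in 10. Among the settings under which it missed the threshold were those that left out wildtype vehicle library 1, 2 or 3 (limma, adjusted p = 0.0566, 0.11 and 0.152), mdx vehicle library 3 (0.0941) or mdx GTx-026 library 2 (0.0534), and the fit of only the 6 libraries compared (0.11). In mdx GTx-026 the loss came without wildtype vehicle library 2, without wildtype vehicle library 3 and without each GTx-026 library in turn (limma, adjusted p of 0.0645 to 0.107). In the authors' deposited table this record had a wildtype vehicle mean of 0.442 of the mdx vehicle mean, with an unadjusted p of 0.00884.

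**Figure D3:**
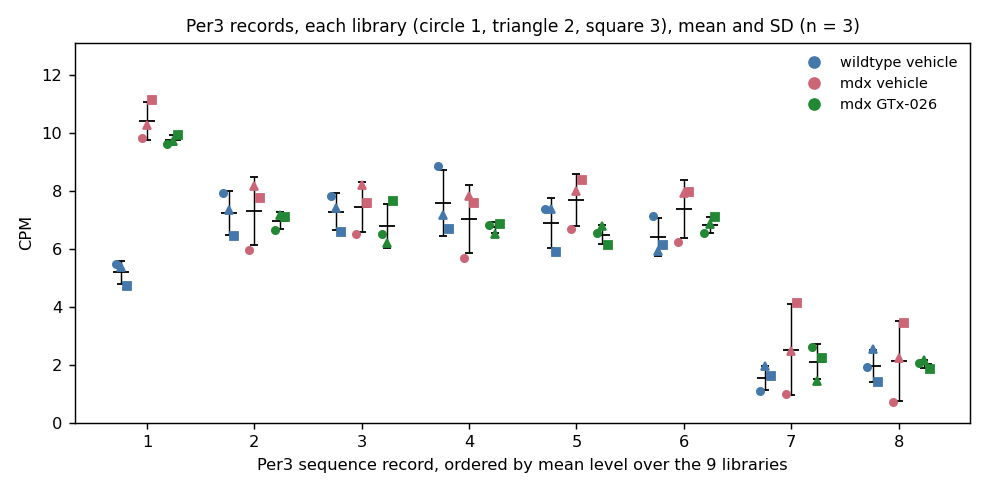
Level in CPM (vertical axis) of each of the 8 Per3 sequence records, ordered along the horizontal axis by mean level over the 9 libraries, in wildtype vehicle, mdx vehicle and mdx GTx-026 (circle library 1, triangle library 2, square library 3; mean and SD of 3 libraries). Record 1 is at 4.73 to 5.47 CPM in wildtype vehicle and 9.60 to 11.1 CPM in the mdx libraries, while the groups of the other 7 records overlap between wildtype and mdx vehicle.

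Of the output factors, Dbp (chromosome 7, 45705088 to 45710203) encodes an activator of D-box genes whose mRNA follows the E-box activators closely. It was at 79.3, 61.0 and 72.6 CPM in wildtype vehicle, then 60.2, 56.1 and 70.1 in mdx vehicle, and 59.3, 55.9 and 60.9 in mdx given GTx-026. Its highest mdx GTx-026 library lay just under the lowest wildtype library. The log2 fold changes against wildtype vehicle were −0.19 in mdx vehicle (95% interval −0.50 to 0.12, adjusted p = 0.594) and −0.26 in mdx GTx-026 (95% interval −0.57 to 0.05, limma adjusted p = 0.503). Its second record by level had the largest of these differences among its 3, −0.47 and −0.61, and passed in neither. Dbp shares 539 exonic bases (18%) with Sphk2 on the opposite strand, which was at 37.1 ± 3.55, 37.0 ± 4.79 and 36.4 ± 1.66 CPM in the 3 groups.

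Tef (chromosome 15, 81802421 to 81826863), the thyrotroph embryonic factor of the same family, holds an E-box in both of its promoter windows, 127 and 138 bases before the start sites. It was at 255, 293 and 270 CPM in wildtype vehicle, then 226, 294 and 312 in mdx vehicle, and 377, 280 and 282 in mdx given GTx-026. One mdx GTx-026 library stood above the rest, and the groups otherwise shared a range. The log2 fold changes were 0.01 in mdx vehicle (95% interval −0.39 to 0.41, adjusted p = 0.98) and 0.19 in mdx GTx-026 against wildtype vehicle (limma, adjusted p = 0.768). Its 7 records lay close to each other, with log2 fold changes of −0.02 to 0.06 in mdx vehicle. The authors' deposited table differs here: for 5 of the 7 records its unadjusted p was 0.0122 to 0.0358, with a wildtype vehicle mean of 0.848 to 0.888 of the mdx vehicle mean. Against mdx GTx-026 the ratios in the authors' deposited table were 0.797 to 0.83 over the 7 records (unadjusted p of 0.00169 to 0.058). Under the authors' scaling the median of all genes is itself shifted by 0.159 on the log2 scale in mdx vehicle.

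**Figure D4:**
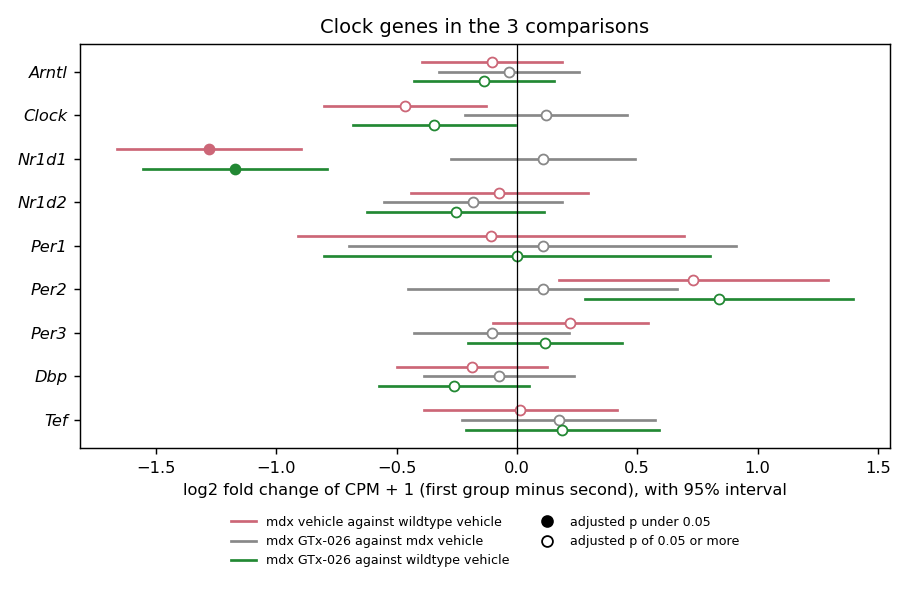
Log2 fold change of CPM + 1 (horizontal axis, first group minus second) of each measured clock gene in the 3 comparisons, with 95% intervals from limma; filled points have an adjusted p under 0.05. Nr1d1 alone has filled points, at −1.28 and −1.17 against wildtype vehicle, and Per2 lies at 0.73 and 0.84 with open points.

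Read by the order of their peaks, the measured genes had no common direction in mdx vehicle. Of those that peak near Nr1d1, Dbp lay at −0.19, Nr1d2 at −0.07 and Per3 at 0.22 in mdx vehicle, none past the test. Of the later Per2 and Per1, the values were 0.73 and −0.11, and of the activators Clock and Arntl −0.46 and −0.10, again none past the test. The value of Arntl rests on an estimated 10 to 28 reads in a library. It spanned −0.234 to 0.008 when 1 library was left out. Clock genes without overlap between mdx vehicle and wildtype vehicle numbered 2 of 9 (Nr1d1 and Clock), where 16.5% of all genes had none. In mdx GTx-026 against wildtype vehicle there were 3 of 9 (Nr1d1, Dbp and Per2) against 20.8%, and between the mdx groups 0 of 9 against 6.8%. Both counts against wildtype include Nr1d1, which had been called in these data before the genes were chosen, so they are not a fresh test. With no hour and no series of times given, a shift of phase, a smaller amplitude and a change in the level of Nr1d1 alone cannot be told apart.

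Between mdx mice given GTx-026 and mdx mice given vehicle no measured clock gene differed past the threshold. The log2 fold changes ran from −0.18 (Nr1d2, 95% interval −0.55 to 0.19) to 0.17 (Tef, 95% interval −0.23 to 0.57). The intervals bound what could have been missed. For Nr1d1 they allow 0.826 to 1.40 times the mdx vehicle level, which leaves out the 2.46-fold rise that a return to the wildtype mean would take. For Per2 they allow 0.731 to 1.59 times, and for Clock 0.86 to 1.37 times.

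Other genes of the clock were taken from a list of 12, of which 11 were measured. By limma 0 of 11 passed in mdx vehicle, 2 of 11 had an unadjusted p under 0.05 (12.7% of all genes did), and the median log2 fold change was −0.12 against 0.01 over all genes. For the list genes named below as without overlap in mdx vehicle, the share of all genes without overlap was 16.5%. Hlf, the third factor of the family of Dbp and Tef, was at 12.6, 18.0 and 17.1 CPM in wildtype vehicle, then 9.38, 9.47 and 12.5 in mdx vehicle, and 7.86, 10.1 and 11.2 in mdx given GTx-026. The mdx libraries all lay below wildtype, but the log2 fold change of −0.56 did not pass (limma, adjusted p = 0.298). Timeless was at 6.20 ± 0.833 CPM in wildtype vehicle and 8.31 ± 0.994 CPM in mdx vehicle, with no overlap and no passing test (0.37, adjusted p = 0.414). The repressors Cry1 and Cry2, partners of the period proteins, lay at −0.08 and −0.10 in mdx vehicle, values given for context although they fall outside the rule by which genes are named.

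Of 20 kinases, ligases and cofactors that act on clock proteins, 19 were measured and 0 passed by limma in mdx vehicle, with 3 of 19 at an unadjusted p under 0.05, against 12.7% of all genes. The median was −0.13. The mdx vehicle libraries lay below all wildtype libraries for Csnk2a1 (−0.18), for the kinases Gsk3a (−0.21) and Gsk3b (−0.42), and for Prkaa2 (−0.40), the AMP-activated kinase subunit that marks cryptochromes for decay. Of 20 genes commonly driven by the clock in peripheral tissues, 0 passed in mdx vehicle by limma and 4 of 20 had an unadjusted p under 0.05, against the same 12.7%, with a median of −0.23. Tspan4 (0.56) and the cell cycle inhibitor Cdkn1a (1.38, adjusted p = 0.118) lay above wildtype without overlap, and the lipase gene Lpl (−1.08, adjusted p = 0.424) lay below it.

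Glucocorticoid and body temperature both set the phase of peripheral clocks, so genes that answer to them were counted too. Of 19 glucocorticoid-responsive genes, 2 rose in mdx vehicle: the metallothioneins Mt1 (3.00, limma adjusted p = 0.027) and Mt2 (4.06, adjusted p = 0.0069), which metals and inflammation also induce. Of all genes 0.189% rose in that comparison. The list as a whole was split, with 10 of 19 higher and 9 lower in mdx vehicle. Its median log2 fold change was 0.23, against 0.01 over all genes, and the lowest value was that of Pdk4 (−0.80). At an unadjusted p under 0.05 by limma there were 7 of 19, among them the lower Fbxo32 (−0.71), against 12.7% of all genes. Without overlap, 4 of 19 lay above wildtype and 0 below, where 16.5% of all genes had no overlap. Fkbp5, a chaperone of the glucocorticoid receptor, was at 10.1, 10.7 and 11.9 CPM in wildtype vehicle, then 12.8, 56.2 and 25.3 in mdx vehicle, and 73.5, 63.3 and 47.6 in mdx given GTx-026. Against wildtype vehicle it rose in mdx GTx-026 (2.37, limma adjusted p = 0.0288), where 1.05% of all genes rose. In mdx vehicle it lay above wildtype without overlap and did not pass (1.21, limma adjusted p = 0.294). With it, 3 of 19 rose in mdx GTx-026 against wildtype vehicle, the others being Mt1 (3.98, limma adjusted p = 0.00453) and Mt2 (5.11, adjusted p = 0.00102). In that comparison 6 of 19 had an unadjusted p under 0.05 by limma, against 12.5% of all genes. Without overlap, 6 of 19 lay above wildtype and 1 below (Klf15, −0.84), where 20.8% of all genes had no overlap. In mdx GTx-026 against wildtype vehicle 11 of 19 were higher and 8 lower. Ddit4 lay above wildtype without overlap in mdx vehicle and did not pass (1.87, adjusted p = 0.191). Per1, itself on this list, lay at −0.11. Of 11 temperature-responsive genes 0 passed in mdx vehicle by limma and 1 of 11 had an unadjusted p under 0.05, the chaperone gene Hsph1, which lay below wildtype without overlap (−0.66, adjusted p = 0.208). In mdx GTx-026 against wildtype vehicle 0 genes passed by limma on the lists of other clock genes, regulators, outputs and temperature, with 1 of 11, 3 of 19, 6 of 20 and 0 of 11 at an unadjusted p under 0.05, against 12.5% of all genes. Between the mdx groups 0 passed on any of the 5 lists, with 1 of 11, 0 of 19, 1 of 20, 4 of 19 and 0 of 11 at an unadjusted p under 0.05 for clock, regulator, output, glucocorticoid and temperature genes, against 3.16% of all genes. Whether these shifts bear on the clock genes was not tested. Nor was it tested whether Fkbp5 rose in mdx GTx-026 through glucocorticoid or through GTx-026 itself. The study's title places GTx-026 among agonists of the androgen receptor.

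The genes whose pattern was most like that of Nr1d1 were sought among 8190 genes with a mean of at least 10 CPM, by the root mean square difference of mean-centred log2 values over the 9 libraries. The nearest was Stk40 at 0.196, a gene at 127 ± 7.18 CPM in wildtype vehicle, 53.3 ± 7.08 in mdx vehicle and 60.8 ± 7.12 in mdx GTx-026 (SD, n = 3) (log2 fold change in mdx vehicle −1.25, limma adjusted p = 0.0114). Phf7 (0.251), Ptpn4 (0.273) and Nedd1 (0.291) were also among the 5 nearest, and these 3 did not pass in mdx vehicle. All 5, Stk40 included, were picked for their likeness to Nr1d1 in these same libraries. A lower level in mdx follows from that choice, and their tests are not separate evidence. No other clock gene was among the 5 nearest, and Arntl, under 10 CPM, was not ranked. Clock stood at rank 252, Dbp at 705 and Nr1d2 at 2421, while Per2 stood at 7749.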

How the data were processed

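Poly(A) RNA of gastrocnemius was made into barcoded libraries for an Ion Torrent Proton, per the labels' protocols. Per the submitters' processing notes, the tools were HTSeq 0.6.1p1, DESeq2 1.6.3, SAMtools 0.1.19, TopHat2 2.0.13 and Bowtie2 2.2.4 with GRCm38.p3, without settings, and the sources used here name neither the annotation nor whether strand was used. For each of 46442 sequence records, the deposited signal is a read number multiplied by a factor of its library. Per the file headers, the authors' ratio of group means and the authors' deposited p-value stand beside it for each pair of groups. Below 10000 all signal values lay within 0.1 read of whole multiples of 1 step per library, and estimated reads are the signal divided by that step. These scaled values were not taken as counts, so no count model was run.

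The 10 clock genes and the gene lists were chosen with earlier results of these data known. Records above 0 in all 9 libraries were summed by symbol, which gave 15372 tested genes; 4 records without a symbol (0.000646% of the total) were left out. Libraries were rescaled by an unweighted trimmed mean of log ratios (30% trimmed on the ratio, 5% on the level), with factors of 0.874 to 1.30, and values are CPM. All 9 libraries entered 1 model of log2(CPM + 1), fitted by limma 3.58.1 (R 4.3.3) with a prior variance that follows the level and 6 residual plus 3.54 prior degrees of freedom. Two-sided p-values were adjusted by Benjamini-Hochberg within a comparison over every gene tested (threshold 0.05). The code was tested on simulated data. The + 1 understates changes of low genes. At this depth 1 CPM stands for at least 25.1 reads.

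Columns of the table name a group and a number, so each was mapped to its group; the labels tie no number to a shared animal, litter or day. Named genes were the 10 members, genes overlapping them, list genes past the threshold or without overlap between wildtype vehicle and mdx vehicle, and the 5 genes nearest to Nr1d1, of which 1 is not reported here. Promoters came from RefSeq (GRCm38.p6) and gene positions from GENCODE M21. No promoter of Per2 was printed.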

Additional observations from a re-analysis of the deposited data

How the results depend on the processing

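Added after seeing the data were a pseudocount of 1 on the deposited scale and the column number as a block, both among the 21 alternatives, and the tests of single records. The planned edgeR and DESeq2 fits were not run, because the deposited values are scaled. Sample titles share no numbers between groups, but columns carry 1 to 3 in each. Deviations from group means correlated at −0.325 to 0.41 over the 9 same-numbered pairs, over 0.1 in 4, and 3 of 9 libraries correlated best with their own number, so the numbers were not taken to pair samples. With the number as a replicate block 37, 2 and 179 of all genes passed in mdx vehicle against wildtype vehicle, between the mdx groups and in mdx GTx-026 against wildtype vehicle, where the fit without it gave 52, 2 and 227. Under the block Nr1d1 was the clock gene past the threshold in both comparisons with wildtype (limma, adjusted p = 0.0319 and 0.0232), and the Per3 record had adjusted p = 0.0557 and 0.0438. With the authors' scaling the median of all genes shifted to 0.159 on the log2 scale in mdx vehicle against wildtype vehicle, so values there are relative to that shift. Under that scaling 0 clock genes passed in either comparison with wildtype vehicle, 4 were without overlap in mdx vehicle, and 4 of all genes passed between the mdx groups; Nr1d2 (0.109) and Per1 (0.073) changed sign in mdx vehicle, and Per1 did so in mdx GTx-026 against wildtype vehicle (0.111). With only the largest record of a symbol, 2 clock genes (Nr1d1 and Per3) passed against wildtype vehicle in both mdx groups; the Per3 record kept is the largest through the mdx libraries (5.19 CPM in wildtype vehicle, below records 2 to 6), so this choice favours its call. There Arntl minus Per3 was −3.03, −4.39 and −4.32 in the 3 groups, and Tef in mdx vehicle (−0.002) and Dbp between the mdx groups (0.005) changed sign. With only the 2 compared groups 0 clock genes passed in mdx vehicle, and all genes passing numbered 5 in mdx vehicle, 1 between the mdx groups and 421 in mdx GTx-026 against wildtype vehicle. With library quality weights these were 295, 4 and 861, and Per1 changed sign in mdx vehicle (0.146) and between the mdx groups (−0.28). A pseudocount of 5 left 1 gene between the mdx groups. Leaving out 1 library gave 0 to 1, 0 to 0 and 0 to 1 clock genes passing in mdx vehicle against wildtype vehicle, between the mdx groups and in mdx GTx-026 against wildtype vehicle; 5 to 93, 0 to 2 and 45 to 374 of all genes; and 2 to 5, 0 to 1 and 3 to 6 clock genes without overlap. It turned the sign of values near 0, which spanned −0.203 to 0.043 (Nr1d2), −0.234 to 0.008 (Arntl), −0.487 to 0.3 (Per1) and −0.078 to 0.153 (Tef) in mdx vehicle. Between the mdx groups they spanned −0.039 to 0.234 (Nr1d1), −0.145 to 0.098 (Arntl), −0.312 to 0.486 (Per1) and −0.144 to 0.014 (Dbp), and Per1 in mdx GTx-026 against wildtype vehicle spanned −0.232 to 0.131. The causes were not tested. Depth limits Arntl most, which has no value under a minimum mean of 1 CPM.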
